A study of Homo sapiens with 6 samples.

Results

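The SOCS family is a set of intracellular proteins that switch off cytokine and growth factor signals, and LRIG1 and ERRFI1 are inhibitors of the ERBB receptors, the family of EGFR. Expression of these 10 genes was examined in H661 cells (a human lung carcinoma line of the large cell type) after knockdown of SALL4, a zinc finger transcription factor of embryonic stem cells. The members were SOCS1 to SOCS7, CISH, LRIG1 and ERRFI1, chosen by name, and all 10 of the 10 named genes were measured among the 18404 genes on the arrays. Each of them was read by 1 probe set that the platform annotation assigns to that gene symbol alone, so no choice between probe sets was needed. The SALL4-sh group held 3 arrays of H661 cells transduced with lentivirus carrying a SALL4 short hairpin RNA, and the Scr-sh group held 3 arrays of H661 cells transduced with a scrambled hairpin. All 6 samples were thus infected cells of a single line, and SALL4 was targeted with a single hairpin. The labels give medium with 10% fetal bovine serum and Trizol extraction, whereas the study's methods give a higher serum share and a column kit. No source used here says how long after transduction the cells of the arrays were collected, or whether arrays of 1 group represent separate cultures. The p-values therefore reflect only how these samples spread, which may be technical.

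Proteins of the SOCS family carry an SH2 domain, which binds phosphorylated tyrosines of receptors and kinases, and a SOCS box, which recruits elongins and the scaffold CUL5 to form a ubiquitin ligase. Several of them, CISH and SOCS1 to SOCS3 in particular, are themselves switched on by STAT transcription factors, so that a cytokine signal induces its own inhibitor. SOCS4 and SOCS5 are known for acting on the EGF receptor, and SOCS6 and SOCS7 for binding insulin receptor substrates and receptor tyrosine kinases. LRIG1 is a membrane protein with leucine-rich repeats that lowers ERBB receptors at the cell surface, and ERRFI1, also called MIG6, binds the kinase domain of EGFR and holds it inactive.

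The promoter of CISH is shown because CISH is the textbook target of STAT5 in the family. In RefSeq promoter windows of GRCh38.p14, which run from 250 bases before to 50 bases after a gene start, 7 of the 10 members had an entry, with 11 windows in all. The STAT-type motif TTCNNNGAA, which reads the same on both strands, was found in 1 of these 11 windows, that of CISH, where it occurred 4 times without overlap. It was found at least once in 7.66% of all 35116 windows and 4 or more times in 0.0199% of them. The stretch of CISH below lies at chr3:50611865-50612024 on the minus strand, from base -250 to base -91 relative to the start, and capitals mark the 4 motif matches, which are a description of the letters and not of binding. The window of SOCS6, the member with the largest difference between the groups, had no such match. It was 81.3% G and C, against a median of 58.7% over all windows, and 1.6% of all windows were as rich or richer. All 11 windows of the members lay above that median, at 64.0% or more, and the ERRFI1 window held 47 CG dinucleotides, as many as that of SOCS6. The last 200 bases of SOCS6 before the start are shown as well, at chr18:70288845-70289044 on the plus strand, with CG dinucleotides in capitals.
CISH: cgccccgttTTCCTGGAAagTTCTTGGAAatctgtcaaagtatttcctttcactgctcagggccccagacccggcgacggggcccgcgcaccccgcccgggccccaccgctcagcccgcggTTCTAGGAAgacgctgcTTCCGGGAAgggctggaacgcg
SOCS6: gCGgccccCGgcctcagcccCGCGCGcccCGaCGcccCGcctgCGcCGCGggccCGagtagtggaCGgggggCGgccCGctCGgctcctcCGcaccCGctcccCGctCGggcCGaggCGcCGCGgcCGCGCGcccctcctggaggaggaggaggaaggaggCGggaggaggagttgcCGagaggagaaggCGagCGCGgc

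The values are normalized intensities on a linear scale, with no value below a floor of 8. None of the 10 members had a value at this floor on any array. SALL4 itself had intensities of 33.6, 31.9 and 26.5 in SALL4-sh, against 126, 104 and 130.2 in Scr-sh. Its log2 fold change was -1.97 (limma adjusted p = 0.0159, and 0.0309 to 0.0741 with any 1 array left out, under the threshold only without Scr-sh replicate 2). With probe sets of a mean intensity up to 8.26 left out as well as any 1 array, it was 0.0053 to 0.0196 from limma. Across the log2 values of all probe sets, correlations were 0.969 to 0.980 within a group and 0.955 to 0.965 between the groups. Of the cell type markers, EPCAM (843 to 1113 in SALL4-sh and 590 to 898 in Scr-sh) and KRT18 were the epithelial genes well above the floor, whereas KRT7, KRT8, KRT19 and CDH1 were at no more than 17.3 on any array and the lung genes SFTPB, SCGB1A1 and NAPSA stood at or near the floor. The mesenchymal marker VIM had 941 to 1142 in SALL4-sh and 1117 to 1615 in Scr-sh. Of 9 measured leukocyte markers, 4 were at the floor on all 6 arrays, PTPRC and CD3E among them. CD68 stood well above it, with 33.0, 35.4 and 30.5 in SALL4-sh, against 34.0, 69.9 and 71.6 in Scr-sh. NKG7 did as well, with 35.5, 25.3 and 30.7 in SALL4-sh, against 26.6, 24.1 and 25.6 in Scr-sh. Neither was called. The summed intensity of the 9 was 117 to 126 in SALL4-sh and 120 to 153 in Scr-sh. The 11 lung and epithelial markers summed to 977 to 1251 in SALL4-sh and 725 to 1065 in Scr-sh, mostly from EPCAM, with CDH1 called higher. KRT18 had a lower mean in SALL4-sh (41.7) than in Scr-sh (56.1). The 9 mesenchymal markers summed to 1266 to 1467 in SALL4-sh and 1603 to 2017 in Scr-sh, mostly from VIM, with FN1 and DCN at the floor throughout. COL1A1 was called lower. With probe sets of a mean intensity up to 8.26 left out, COL1A1 lost its call (limma adjusted p = 0.0725) and COL1A2 was lower (0.0303). COL3A1 had a higher mean in SALL4-sh (103 against 86.9), and CDH2 had a log2 fold change of 0.0085. The part of these markers in the members' values was not tested. In bulk RNA, fewer cells with a transcript and less of it per cell cannot be told apart.

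SOCS6 and SOCS5 were the members whose groups stood apart, and they did so in opposite directions. SOCS6, which binds activated KIT and insulin receptor substrates, was 0.494 of its Scr-sh level in SALL4-sh cells (95% confidence interval 0.319 to 0.763, n = 3 arrays each), and SOCS5, which acts on EGFR and cytokine receptors, was 1.60 times its Scr-sh level (1.29 to 1.97). Neither passed the test over all 18404 genes. Of the 10 members, 0 were called at an adjusted p under 0.05 from limma, where 2.51% of all genes were called (1.18% higher and 1.33% lower), and the gene-by-gene test that the study names also called 0 after adjustment. At an unadjusted p under 0.05 from limma, 1 member was higher and 1 was lower, where 17.4% of all genes were counted, 9.55% higher and 7.87% lower. The same pair, SOCS5 higher and SOCS6 lower, had groups that did not overlap, where 27.5% of the genes not at the floor throughout had such groups, 15% higher and 12.5% lower. A count of 1 in 10 each way is close to these background shares. When dim probe sets were left out before the test (those with a mean intensity no higher than the 25th percentile, 8.26), SOCS5 and SOCS6 passed it, 1 higher and 1 lower, and 11.3% of the remaining 13840 genes were called, 5.85% higher and 5.47% lower. Over the 10 members, 5 had a positive and 5 a negative log2 fold change, with a median absolute value of 0.34, against 0.21 over the genes not at the floor throughout. Only 12057 of those 14511 genes were, like the members, above the floor on all 6 arrays, and the difference was not tested.

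**Figure D1:**
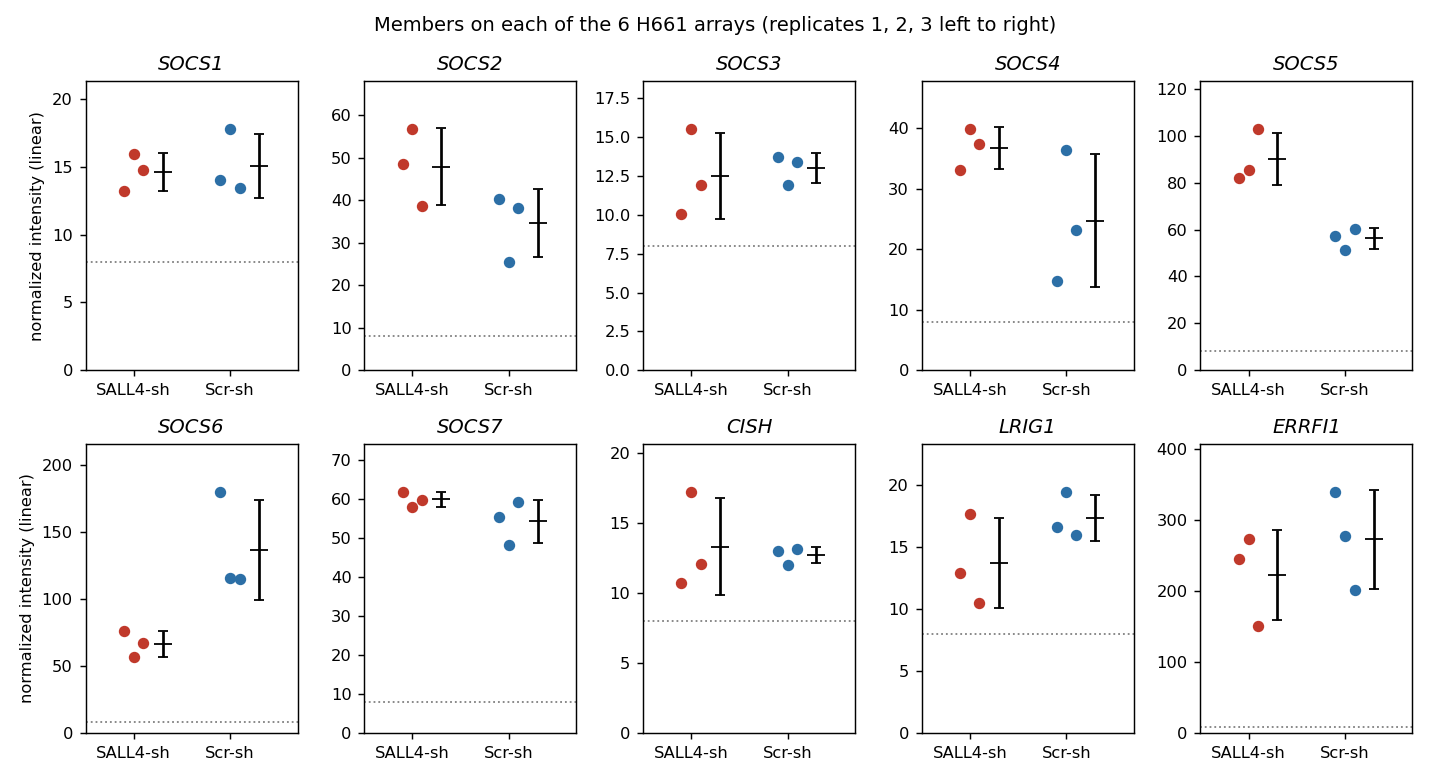
Normalized intensity (linear scale, own axis for each gene) of the 10 members on each of the 6 H661 arrays, with SALL4-sh left and Scr-sh right in each panel. Points are single arrays, bars show each group's mean and SD (n = 3), and dots mark the floor at 8. The groups are apart for SOCS5 (90.1 in SALL4-sh and 56.3 in Scr-sh on average) and SOCS6 (66.5 in SALL4-sh and 137 in Scr-sh), and overlap for the other 8.

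Of the SOCS proteins linked to receptor tyrosine kinases, SOCS6 had the larger difference. Its intensity was 75.9, 56.6 and 67.2 in SALL4-sh, against 180.2, 116 and 115 in Scr-sh, or 66.5 ± 9.67 and 137 ± 37.4 (SD, n = 3 each). The groups did not overlap, with all of SALL4-sh below Scr-sh, and Scr-sh replicate 1 stood above the other 2 arrays of its group. The log2 fold change of SOCS6 was -1.02 (95% confidence interval -1.65 to -0.39, adjusted p = 0.128 from limma), and the exact two-sided permutation test over the 20 labelings of the arrays gave p = 0.1, the smallest that 3 against 3 allow. With the dim probe sets left out its adjusted p was 0.0181 from limma. Leaving out Scr-sh replicate 1 gave a log2 fold change of -0.80, and with that array left out as well as the dim probe sets the adjusted p was 0.0497 from limma. Over the 6 arrays left out in turn with the dim probe sets also out, it ran from 0.0338 to 0.112 from limma, and stayed under 0.05 only without Scr-sh replicate 1 or 2. In absolute size, 4.15% of all genes had a larger log2 fold change than SOCS6, where all genes include the 3893 at the floor on all arrays, which cannot differ.

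SOCS5 was higher on every SALL4-sh array than on any Scr-sh array. Its intensity was 81.9, 85.5 and 103 in SALL4-sh, against 57.2, 51.4 and 60.1 in Scr-sh, or 90.1 ± 11.1 and 56.3 ± 4.42 (SD, n = 3 each). The log2 fold change of SOCS5 was 0.68 (95% confidence interval 0.37 to 0.98, adjusted p = 0.0742 from limma), with p = 0.1 from the exact two-sided permutation test, and with the dim probe sets left out the adjusted p was 0.0301 from limma. Leaving out any 1 array as well as the dim probe sets gave an adjusted p of 0.0593 to 0.107 from limma.

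SOCS4, the closest relative of SOCS5, had an intensity of 33.0, 39.8 and 37.4 in SALL4-sh, against 14.7, 36.4 and 23.1 in Scr-sh. The 3 SALL4-sh arrays lay close together and the 3 Scr-sh arrays were spread over a wide range, so that Scr-sh replicate 2 fell among the SALL4-sh values. The log2 fold change was 0.66, nearly that of SOCS5, but its 95% confidence interval of -0.32 to 1.65 from limma included 0 (adjusted p = 0.492). Without Scr-sh replicate 2 it was 0.99. With the dim probe sets left out in addition to that array its adjusted p was 0.0412 from limma, and with them left out and all 6 arrays kept it was 0.198.

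SOCS7, which binds insulin receptor substrates as SOCS6 does, differed little between the groups. Its intensity was 61.8, 58.0 and 59.8 in SALL4-sh, against 55.4, 48.2 and 59.1 in Scr-sh. Scr-sh replicate 3 lay within the SALL4-sh range, and the ratio of SALL4-sh to Scr-sh was 1.11 with a 95% confidence interval of 0.944 to 1.30 (limma adjusted p = 0.523). SOCS6 and SOCS7, which are close relatives, thus had values on either side of Scr-sh, 0.494 and 1.11 times its level, and the difference between these 2 ratios was not tested.

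**Figure D2:**
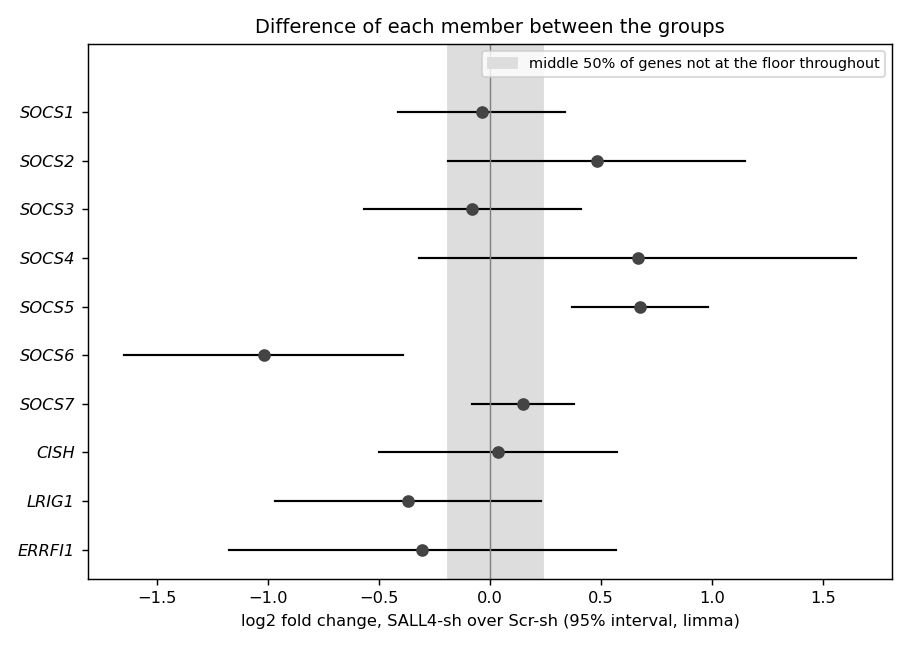
Log2 ratio of SALL4-sh to Scr-sh for each member, with the 95% confidence interval from limma (n = 3 arrays per group). The grey band is the interquartile range of the genes not at the floor throughout. The intervals of SOCS5 (0.37 to 0.98) and SOCS6 (-1.65 to -0.39) leave out 0, and those of the other 8 include it.

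The members that are classical cytokine-induced inhibitors had groups that overlapped, and SOCS1, SOCS3 and CISH were measured close to the floor. SOCS2, which limits growth hormone signaling, had intensities of 48.4, 56.7 and 38.6 in SALL4-sh, against 40.2, 25.5 and 38.2 in Scr-sh. The lowest SALL4-sh value of SOCS2 fell between the Scr-sh values, and the log2 fold change was 0.48 with a 95% confidence interval of -0.19 to 1.15 (limma adjusted p = 0.459). SOCS1, which blocks JAK kinases directly and restrains interferon signaling, had 13.2, 15.9 and 14.7 in SALL4-sh, against 14.0, 17.8 and 13.4 in Scr-sh. Its groups overlapped, and the ratio of SALL4-sh to Scr-sh was 0.974 (95% confidence interval 0.750 to 1.27 from limma). SOCS3, the inhibitor of gp130 cytokine receptors, had 10.1, 15.5 and 11.9 in SALL4-sh, against 13.8, 11.9 and 13.4 in Scr-sh, a ratio of 0.947 (95% confidence interval 0.674 to 1.33 from limma). CISH, whose promoter with its 4 STAT-type motifs is printed above, had 10.7, 17.2 and 12.1 in SALL4-sh, against 13.0, 12.0 and 13.1 in Scr-sh, a ratio of 1.03 (95% confidence interval 0.708 to 1.49 from limma). For SOCS1, SOCS3 and CISH alike, limma gave an adjusted p of 1. All their intensities lay between 10.1 and 17.8, near the floor of 8.

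LRIG1 and ERRFI1, the inhibitors of ERBB receptors, both had lower means in SALL4-sh, with groups that overlapped. LRIG1 had an intensity of 12.9, 17.7 and 10.5 in SALL4-sh, against 16.7, 19.5 and 16.0 in Scr-sh. SALL4-sh replicate 2 lay within the Scr-sh range and the other 2 arrays below it, and the log2 fold change was -0.37 (95% confidence interval -0.97 to 0.23, adjusted p = 0.546 from limma). ERRFI1 had 244, 273 and 151 in SALL4-sh, against 339, 278 and 201 in Scr-sh. Both groups of ERRFI1 spanned a wide range, with replicate 3 the lowest of each, and the log2 fold change was -0.30 (95% confidence interval -1.17 to 0.57, adjusted p = 0.805 from limma).

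**Figure D3:**
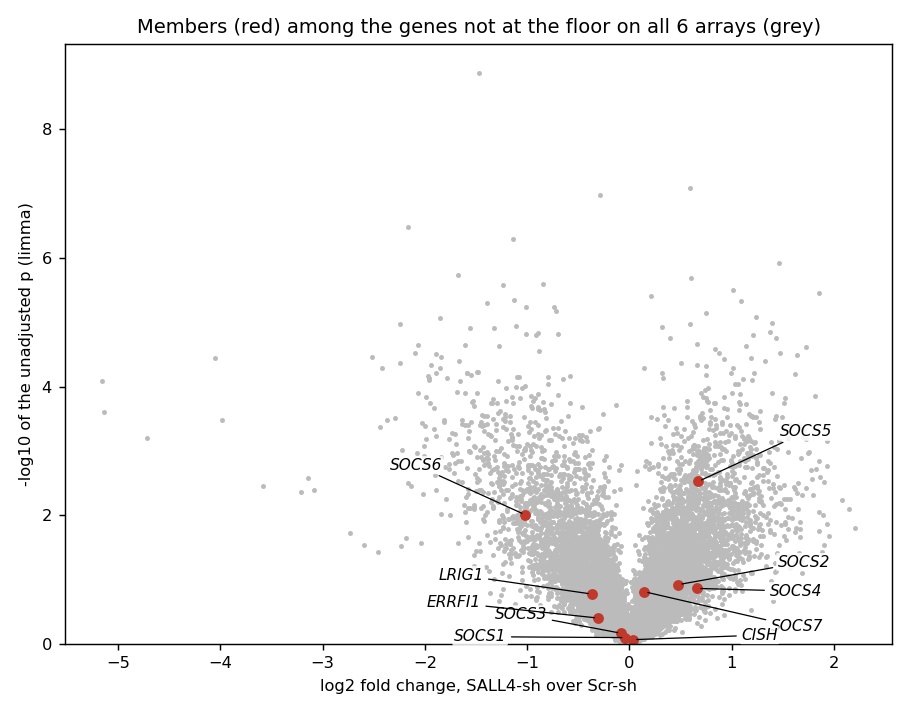
Log2 fold change between SALL4-sh and Scr-sh (x axis) and -log10 of the unadjusted p from limma (y axis) of the 10 members (red) and of the other genes not at the floor on all 6 arrays (grey). SOCS5 and SOCS6 are the 2 members with an unadjusted p under 0.05. Of all genes, counting those at the floor that are not drawn, 4.03% had a smaller p than SOCS5 and 7.72% a smaller p than SOCS6.

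Within SALL4-sh, a single array held most of the highest values. SALL4-sh replicate 2 held the highest value of its group for 7 of the 10 members, namely SOCS1, SOCS2, SOCS3, SOCS4, CISH, LRIG1 and ERRFI1, and the lowest for SOCS6 and SOCS7. Over the 12057 genes above the floor on all 6 arrays, that array held the highest of the 3 SALL4-sh values for 35.9%. Within Scr-sh the highest values were spread over the arrays, with 4 members highest in replicate 1 and 3 each in replicates 2 and 3. No test was made of these counts.

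By a rule that compares log2 values centred on the mean of the 6 arrays, the 3 genes most like SOCS5 among 12056 were CLCN3, an endosomal chloride transporter, IL17RA, the receptor of interleukin-17, and TUT1, which adds uridines to RNA. Their root mean square differences from SOCS5 were 0.0677, 0.0687 and 0.0728 on the log2 scale over the 6 arrays. IL17RA, for one, had 67.6, 71.9 and 86.7 in SALL4-sh, against 43.6, 38.5 and 49.7 in Scr-sh, so that SALL4-sh replicate 3 was the highest array for both genes. The 3 genes most like SOCS6 were TBCB, a cofactor of tubulin folding, HSPB1, a small heat shock protein, and CSAG1, a cancer-testis antigen, with differences of 0.0725, 0.0790 and 0.0944. TBCB had 144, 105 and 134 in SALL4-sh, against 344, 208 and 242 in Scr-sh. Scr-sh replicate 1 was the highest and SALL4-sh replicate 2 the lowest array for SOCS6 and for each of these 3 genes. These genes were picked for their likeness, which was not tested.

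**Figure D4:**
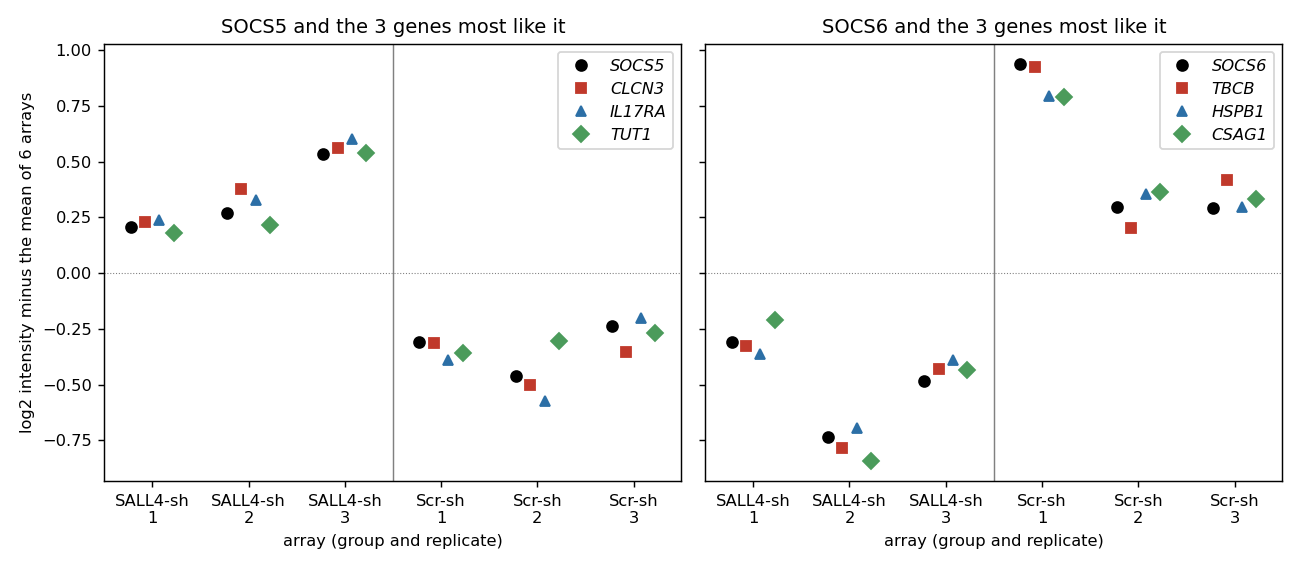
Log2 intensity minus the mean of the 6 arrays for SOCS5 (left) and SOCS6 (right) and for the 3 genes most like each, with the SALL4-sh arrays left of the line and the Scr-sh arrays right of it. Points are single arrays, offset sideways by gene. The 4 genes of the left panel lie above 0 in SALL4-sh and below it in Scr-sh, and those of the right panel the opposite.

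The other genes of these pathways were counted in lists, beside the 1.18% of all genes called higher and the 1.33% called lower. Of 6 measured partners of the SOCS box in its ubiquitin ligase, 0 were called, with a median log2 fold change of 0.14. The scaffold CUL5 had 67.1, 51.3 and 66.8 in SALL4-sh, against 48.4, 50.5 and 55.6 in Scr-sh, and its ring finger partner RNF7 a log2 fold change of 0.49 (limma adjusted p = 0.400) with groups that did not overlap. ARIH2, a ligase that works with CUL5, had one of 0.44 (limma adjusted p = 0.517). Of 25 other proteins with a SOCS box, 0 were called and the median was 0, or -0.05 over the 19 not at the floor throughout. ASB7, an ankyrin repeat protein of this class, had 23.7, 25.8 and 31.1 in SALL4-sh, against 12.6, 16.9 and 18.1 in Scr-sh, and passed only with the dim probe sets left out (adjusted p = 0.0355, and 0.144 over all genes, both from limma). WSB1, another such adaptor, had 385, 379.7 and 387 in SALL4-sh, against 267, 316 and 218 in Scr-sh (limma adjusted p = 0.172). SPSB2 had a log2 fold change of -0.26 (limma adjusted p = 0.262).

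Of 9 Janus kinases and STATs measured, 0 were called. STAT6, which carries the interleukin-4 signal, had groups that did not overlap, with 22.0, 16.9 and 19.9 in SALL4-sh, against 27.0, 29.1 and 26.7 in Scr-sh (log2 fold change -0.50, limma adjusted p = 0.121). The list's median log2 fold change was 0.04. STAT3, which induces SOCS3, had a log2 fold change of 0.04 and STAT5B one of -0.29, the kinase JAK2 had one of 0.27 (adjusted p of 1, 0.606 and 0.497 from limma), and STAT5A, which induces CISH, stood at or near the floor on all arrays. Of 25 cytokine receptor chains, 1 rose and 1 fell, both of interferon receptors. The groups did not overlap for 2 chains that were higher and 8 that were lower, beside 15% and 12.5% of the genes not at the floor throughout, and of the 8 only IFNGR2 passed the test. The median log2 fold change was 0 with 8 chains at the floor on all 6 arrays, and -0.06 over the other 17. IFNAR1, a chain of the type I receptor, had 143, 143 and 128 in SALL4-sh, against 65.1, 72.5 and 69.9 in Scr-sh (log2 fold change 0.99, limma adjusted p = 0.0154). IFNGR2, a chain of the interferon-gamma receptor, had 108, 103 and 111 in SALL4-sh, against 175, 213 and 182 in Scr-sh (log2 fold change -0.82, limma adjusted p = 0.0337). With any 1 of the 6 arrays left out, the adjusted p was 0.0365 to 0.0718 for IFNAR1 and 0.0309 to 0.121 for IFNGR2 from limma, so that IFNAR1 kept its call only without SALL4-sh replicate 3 or Scr-sh replicate 2, and IFNGR2 only without Scr-sh replicate 2. With trend and robust moderation in limma neither passed, with an adjusted p of 0.0572 for IFNAR1 and 0.0733 for IFNGR2. The gene-by-gene test that the study names gave IFNAR1 an adjusted p of 0.0367 and IFNGR2 one of 0.0662. With the dim probe sets left out, limma gave an adjusted p of 0.00453 for IFNAR1 and 0.0121 for IFNGR2. Leaving out any 1 array as well gave 0.0112 to 0.036 for IFNAR1 from limma. For IFNGR2 that range was 0.0226 to 0.06015, under the threshold in 5 of the 6 fits. IFNAR2, the partner chain of IFNAR1, had 59.7, 65.0 and 68.1 in SALL4-sh, against 36.0, 41.5 and 43.6 in Scr-sh (log2 fold change 0.67, limma adjusted p = 0.0526, and 0.0270 with the dim probe sets left out). The partner chain of IFNGR2, IFNGR1, had 40.9, 42.3 and 31.9 in SALL4-sh, against 48.6, 57.9 and 63.0 in Scr-sh. Its log2 fold change was -0.56 (limma adjusted p = 0.186, and 0.0838 with the dim probe sets left out). LIFR, the receptor chain for leukemia inhibitory factor, stood at the floor of 8 on all 3 SALL4-sh arrays and had 17.4, 39.3 and 10.0 in Scr-sh (log2 fold change -1.25, limited by the floor, adjusted p = 0.367 from limma). Of 5 measured cytokines that signal through gp130, 0 were called, and IL6 and LIF were at the floor on all 6 arrays. OSM, oncostatin M, had 9.89, 10.8 and 11.3 in SALL4-sh, against 9.08, 9.11 and 9.76 in Scr-sh (limma adjusted p = 0.227).

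Of 10 other inhibitors of JAK-STAT signaling, 0 were called, with a median of 0.08. The phosphatase PTPN6 had a log2 fold change of 0.56 and the phosphatase PTPN2 of 0.53, and PIAS3, which inhibits STAT3, one of -0.60 (adjusted p of 0.285, 0.311 and 0.232 from limma). Of 19 genes commonly induced by STATs, 0 were called, with a median of 0, or 0.06 over the 16 not at the floor throughout. BCL6, a transcriptional repressor, had 22.4, 14.6 and 10.8 in SALL4-sh, against 51.7, 41.5 and 31.6 in Scr-sh, a log2 fold change of -1.42, and HIF1A, the hypoxia-inducible factor, one of 0.73. Both had an adjusted p above the threshold over all genes, 0.144 and 0.0891, and below it with the dim probe sets left out, 0.0138 and 0.0275, all from limma. CEBPD, a transcription factor of the acute phase response, had a log2 fold change of 0.12 (limma adjusted p = 0.193).

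Of 12 receptor tyrosine kinases and substrates that members of the family bind, 0 were called. The median log2 fold change of the list was -0.26, and -0.30 over the 9 genes not at the floor throughout, beside 0.01 over all genes not at the floor throughout, and this difference was not tested. EGFR, the receptor that ERRFI1, LRIG1, SOCS4 and SOCS5 act on, had 18.0, 15.7 and 15.5 in SALL4-sh, against 27.4, 43.3 and 24.0 in Scr-sh (log2 fold change -0.90, limma adjusted p = 0.182, and 0.0345 with the dim probe sets left out). IGF1R had 135, 124 and 134 in SALL4-sh, against 252, 142 and 168 in Scr-sh (log2 fold change -0.47, limma adjusted p = 0.436). IRS1, an insulin receptor substrate, had a log2 fold change of -0.26 (limma adjusted p = 0.134). Of the 9 genes of the list not at the floor throughout, 4 were lower with groups that did not overlap, EGFR, IGF1R and IRS1 among them, and 0 were higher. Of the genes not at the floor throughout, 12.5% were lower and 15% higher in this way, and the counts were not tested. KIT and FLT3, receptors that SOCS6 is known to bind, and the substrate IRS4 were at the floor on all 6 arrays. Of 8 paralogs of LRIG1 and other inhibitors of ERBB receptors, 0 were called, with a median of -0.09. LRIG3 had 23.7, 19.5 and 18.1 in SALL4-sh, against 28.3, 70.2 and 30.5 in Scr-sh (log2 fold change -0.95, limma adjusted p = 0.362), with Scr-sh replicate 2 far above the rest, and LRIG2 had a log2 fold change of -0.07. CBL, a ubiquitin ligase for EGFR, had a log2 fold change of 1.04 (limma adjusted p = 0.0821, and 0.0108 with the dim probe sets left out), and SPRY4, a Sprouty inhibitor of receptor signaling, one of 0.49 (limma adjusted p = 0.233). CBLB, the paralog of CBL, had 35.2, 47.4 and 38.4 in SALL4-sh, against 49.5, 38.9 and 49.8 in Scr-sh, with overlapping groups (log2 fold change -0.19, limma adjusted p = 0.734).

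**Figure D5:**
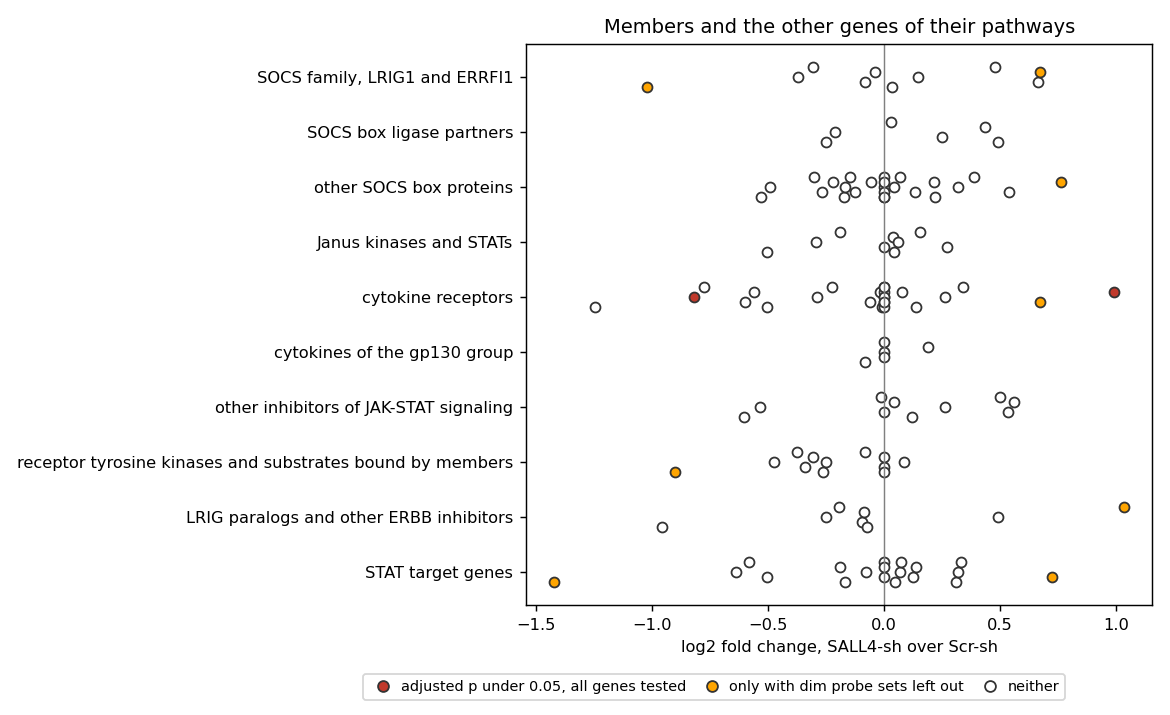
Difference between SALL4-sh and Scr-sh (log2 fold change, x axis) of each measured gene, in the members (top row) and in the 9 lists of related genes. Red points passed an adjusted p of 0.05 from limma over all 18404 genes, orange points only with dim probe sets left out. The 2 red points are the receptor chains IFNAR1 (0.99) and IFNGR2 (-0.82), and SOCS5 and SOCS6 are the orange points of the top row.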

How the data were processed

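RNA of H661 cells was hybridized to 6 Affymetrix gene arrays, 3 per group. The deposited table holds RMA-normalized intensity values of 32321 probe sets, made by the authors on a linear scale, of which 38.8 to 40.4% per array lie at the lowest value of 8. RMA is named in the submitters' processing notes, and neither its version nor the step that set the floor is given in the sources used here. Differences in genes under or near the floor are understated by it. Log2 of the intensities was taken for all tests. The platform annotation gave 1 symbol for 19158 probe sets, several for 1388 and none for 11775, and only the first were used. The brightest probe set of each gene, by the mean over the 6 arrays, stood for it, which gave 18404 genes, and 3893 of these were at the floor on all arrays.

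SALL4-sh was compared with Scr-sh in limma 3.58.1 under R 4.3.3 (lmFit and eBayes, no filter), with Benjamini-Hochberg adjustment over all genes and a threshold of 0.05. An exact two-sided permutation test over the 20 labelings, whose smallest p is 0.1, was run for single genes. The scripts were tested on simulated data. The number of arrays limits the precision, and 0 pairs of arrays were identical. Same-numbered arrays of the 2 groups were not treated as pairs in the main test. Their deviations correlated at 0.153, 0.119 and -0.0038, and those of differently numbered arrays at -0.168 to 0.0427. Arrays numbered 1 and 2 thus correlated best with their own number and those numbered 3 did not, which does not settle whether the arrays are paired. Alternatives were other scalings, filters on dim probe sets, variance models, the study's one-way ANOVA, the replicate number as a block and leaving out each array. Combinations with the filter at the 25th percentile were chosen after seeing the data.

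The members and the gene lists were chosen with earlier results of these data known. Named were all members, SALL4, EGFR and IGF1R, from each list every gene past the threshold or else up to 3 by smallest adjusted p, and the 3 genes most like SOCS5 and SOCS6, the members with the smallest p. STAT3, STAT5B, IFNAR2, IFNGR1, LIFR, LRIG2, CBLB, IL6, LIF, KIT, FLT3 and IRS4 were named after their values were seen.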

Additional observations from a re-analysis of the deposited data

How the results depend on the processing

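The direction of SOCS2, SOCS4, SOCS5, SOCS6, SOCS7, LRIG1 and ERRFI1 was the same under every alternative run, with SOCS5 at a log2 fold change of 0.58 to 0.74 and SOCS6 at -1.13 to -0.80 over 28 alternatives. The directions of SOCS1, SOCS3 and CISH depended on single arrays: with 1 array left out, SOCS1 ran from -0.115 to 0.0864 (0.0344 without SALL4-sh replicate 1 and 0.0864 without Scr-sh replicate 2), SOCS3 from -0.246 to 0.0664 (the highest without SALL4-sh replicate 1) and CISH from -0.164 to 0.181 (-0.164 without SALL4-sh replicate 2 and -0.0028 without Scr-sh replicate 2), and with array weights SOCS1 was 0.0155 and CISH -0.0181. Members past the threshold numbered 1 higher and 1 lower, against 0 and 0, with the dim probe sets up to the 25th or 50th percentile left out, with the genes at the floor throughout left out, at an unadjusted p, and, chosen after seeing the data, with the 25th percentile filter combined with cyclic loess, quantile normalization, median centring or the replicate block. With that filter and 1 array left out there were 0 to 1 in each direction. Genes past the threshold numbered 218 higher and 244 lower. They numbered 809 and 757 with the 25th percentile filter, 827 and 742 with the 50th, 633 and 610 without the genes at the floor, 1757 and 1449 at an unadjusted p, 26 and 50 with trend and robust moderation, 47 and 64 by ANOVA, and 23 to 231 and 29 to 173 with 1 array left out. The 231 and 173 came without Scr-sh replicate 2, and leaving out any other array gave 23 to 48 higher and 29 to 70 lower. The prior degrees of freedom were 5.22 with the 25th percentile filter and 0.422 without it. The replicate block left 3 higher and 7 lower genes and no member, with SOCS5 at an adjusted p of 0.141 and SOCS6 at 0.153 from limma, and SALL4, IFNAR1 and IFNGR2 lost their calls, at 0.115, 0.105 and 0.162. With the 25th percentile filter added to the block, the adjusted p of these 3 genes was 0.0021, 0.00982 and 0.0209 from limma. Nothing in the labels says that a shared number marks a shared culture. Arrays numbered 1 and 2 correlated best with their own number, and those numbered 3 did not.

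The main limits are 3 arrays a group, 1 cell line and 1 hairpin. SOCS1, SOCS3, CISH and LRIG1 lie near the floor, where the array measures differences poorly, and transcripts, not proteins, were measured.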
